A study of Mus musculus with 12 samples.

Results

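Plexins and neuropilins are the cell-surface receptors through which a cell reads semaphorins, and 9 of their genes were followed here at the mRNA level in brown adipocytes that overexpress a soluble semaphorin. The set was a fixed list of gene symbols, drawn up with earlier results of these data known. It held the plexins Plxna1, Plxna2, Plxna3, Plxnb1, Plxnb2, Plxnc1 and Plxnd1 and the neuropilins Nrp1 and Nrp2, that is 9 of 48321 genes in the table. All 9 passed the filter on low values (at least 10 normalized counts in at least 3 libraries), which 11998 genes passed. The remaining plexin genes were close to absent. Plxna4 had 6 reads in 1 vector NE library and no read in the other 11, and Plxnb3 had at most 4 reads in any library, so neither was tested.

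Semaphorins are a large family of secreted and membrane-bound ligands, first described as cues that steer growing axons and since found in vessels, immune cells and fat. Plexins bind them through an outer sema domain and carry inside the cell a domain that switches off small GTPases of the Ras and Rap kind. B-type plexins in addition recruit exchange factors for RhoA, and class 4 semaphorins such as Sema4B are the ligands usually assigned to them. Neuropilins have a short tail without enzymatic activity and act as co-receptors, with A-type plexins for secreted class 3 semaphorins and with VEGF receptors for VEGF.

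The cells were preadipocytes from newborn wild-type mouse brown fat, immortalized with SV40 large T antigen, stably transduced with the lentiviral vector pLEX and selected with puromycin, then differentiated for 8 days. One line carried the empty vector and the other a truncated, Flag-tagged mouse Sema4B that stands for the shed ectodomain (tSema4B), and each was left unstimulated or treated with 2 μM norepinephrine (NE), the sympathetic transmitter that activates brown fat, for 6 h. Each of the 4 groups had 3 libraries, called technical replicates in the series, and whether they came from separate cultures is not stated. The p-values therefore measure the spread between these libraries of 1 line per construct. The construct check held only as a difference between the lines. Sema4b was at 110786 to 124008 normalized counts in unstimulated vector cells against 258257 to 316850 in unstimulated tSema4B cells. After NE it was at 65472 to 81754 against 208760 to 270694. Vector cells thus also had many reads on Sema4b, and the single value per gene does not separate the cells' own transcript from that of the construct. Absence of the construct from vector cells was therefore not shown.

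The libraries held 2000780 to 5409583 reads on genes, with more reads in every vector library than in any tSema4B library of the same condition. Mitochondrially encoded genes took 13.4 to 16.7% of normalized counts in vector libraries and 6.91 to 7.89% in tSema4B libraries, and the part this plays in the results below was not tested. The lines also differed in state. All 10 adipocyte markers fell in tSema4B cells in both conditions, with summed levels of 42229 to 48589 against 7368 to 10115 normalized counts unstimulated and of 55998 to 67499 against 11361 to 12901 after NE. Preadipocyte and fibroblast markers moved the other way, 8 of 10 and 9 of 10 being higher unstimulated and after NE, with sums of 28107 to 29101 against 52528 to 61107 and of 21781 to 24961 against 46810 to 50865. Of all genes tested, 5.64% were called higher and 7.39% lower in tSema4B cells unstimulated, and 9.79% and 11.2% after NE. Of the 5 brown markers, Ucp1 and Cidea fell in tSema4B cells in both conditions, Prdm16 and Ppargc1a did not pass the test, and Dio2 had no read in any library. Ucp1 was at 9.25 to 15.2 normalized counts in unstimulated vector cells and had no read in unstimulated tSema4B cells. A count of 0 does not show that the transcript was absent. After NE Ucp1 was at 276 ± 14.5 against 62.9 ± 3.10. Cidea was at 52.2 ± 10.8 against 6.21 ± 1.37 unstimulated, while Ppargc1a was at 20.8 ± 6.58 against 32.8 ± 20.2 with overlap. The list summed to 97.5 to 122 against 28.6 to 61.6 normalized counts unstimulated and to 348 to 373 against 97.5 to 127 after NE.

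Most defining markers of endothelial cells, which are known for plexins and neuropilins, were at or near 0. Tie1, Cldn5 and Kdr had no read in any library, and 5 of 7 endothelial markers never passed 3 reads. The summed level of the 7, most of it Pecam1, was nonetheless higher in tSema4B cells, at 4.34 to 10.9 against 13.1 to 21.9 normalized counts unstimulated without overlap, and at 5.24 to 13.0 against 12.9 to 17.2 after NE with overlap. Pecam1 itself, at 7.32 ± 3.31 against 14.1 ± 1.23 normalized counts (SD, n = 3) unstimulated, did not pass the test (log2 difference 0.93, adjusted p = 0.282, limma). Of the 6 macrophage markers Adgre1 and Ptprc had no read, but Csf1r rose with NE. It went from 1.37 to 11.5 normalized counts on average in vector cells (adjusted p = 0.0289, limma). In tSema4B cells it went from 1.31 to 15.8 (adjusted p = 0.0119, limma). Csf1r passed the filter through NE libraries alone, being at most 2.74 normalized counts unstimulated. The filter thus favours this rise, and its p-values are not read as support. Csf1r also shares 873 exon bases with the opposite-strand gene Hmgxb3. The sum of the macrophage list was 3.36 to 7.60 and 0 to 5.48 normalized counts in unstimulated vector and tSema4B cells. After NE it was 13.4 to 23.6 and 9.65 to 24.6. Of the 6 neural and Schwann cell markers Sox10 had no read, and the sum was 34.9 to 57.6 against 66.7 to 101 normalized counts between the unstimulated lines and 41.0 to 57.6 against 62.1 to 75.1 after NE. Tubb3 took most of it and was higher in unstimulated tSema4B cells, at 28.1 ± 3.56 against 75.5 ± 10.4 (adjusted p = 0.00159, limma). Pericyte and smooth muscle markers summed to 753 to 1157 against 1065 to 1168 normalized counts unstimulated and to 587 to 785 against 496 to 830 after NE. The part these markers play in the results below was not tested. In bulk RNA, fewer cells of a type and less RNA per cell cannot be told apart.

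Nrp1, Plxnb1 and Plxnb2 were the 3 members called between the lines in at least 1 condition, and the genomic sequence just upstream of each is shown because all were higher in tSema4B cells. The sequences come from RefSeq (GRCm38.p6), written on the strand of the gene from 5′ to 3′ and stopped before the first exon base. Capitals mark GC boxes, the letters GGGCGG or CCGCCC, which the factor Sp1 is known to recognise.
Nrp1, chr8:128358823-128359072, plus strand: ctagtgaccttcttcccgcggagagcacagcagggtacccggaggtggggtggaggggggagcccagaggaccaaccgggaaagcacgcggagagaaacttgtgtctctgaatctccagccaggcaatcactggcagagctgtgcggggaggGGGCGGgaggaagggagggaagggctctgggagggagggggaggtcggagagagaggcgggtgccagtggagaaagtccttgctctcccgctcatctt
Plxnb1, chr9:109095186-109095388, plus strand: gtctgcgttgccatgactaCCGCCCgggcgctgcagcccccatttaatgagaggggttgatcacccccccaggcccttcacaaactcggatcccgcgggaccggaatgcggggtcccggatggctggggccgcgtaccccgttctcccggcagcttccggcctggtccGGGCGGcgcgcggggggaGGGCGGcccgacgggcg
Plxnb2, chr15:89180789-89181038, minus strand: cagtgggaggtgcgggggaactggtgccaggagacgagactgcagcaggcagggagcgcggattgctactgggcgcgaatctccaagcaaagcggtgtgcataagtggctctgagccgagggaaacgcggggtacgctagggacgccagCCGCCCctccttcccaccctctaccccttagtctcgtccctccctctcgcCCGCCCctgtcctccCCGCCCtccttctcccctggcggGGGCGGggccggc
The Nrp1 stretch holds 1 GC box, whose first base lies 98 bases before the RefSeq start. The Plxnb1 stretch holds 3, the nearest 64 bases before the start, and is 203 bases long because an annotated exon begins ahead of that start. The Plxnb2 stretch holds 4, the nearest 13 bases away. RefSeq promoters matched 8 of the 9 members, with a second start for Plxnb2, and Plxna1 had no entry. A GC box on either strand was present in the 250 bases before the start in 9 of these 9 promoters, against 32.7% of 32851 mouse promoters. These 250-base windows include annotated exon bases for some starts, and with such bases removed Plxna2 kept none and the other 8 each held a GC box. The core letters TGACG of the cAMP response element, the full element TGACGTCA and the TATA letters TATAAA were found on neither strand in any of the 9, against 17.8%, 1.55% and 12.4% of all promoters. These matches describe letters only. They are not evidence of binding. The 32851 promoters are not limited to genes tested here, so they are an unlike comparison set. Called and uncalled members alike held a GC box, so it does not set the called members apart.

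Nrp1 lies at chr8:128358604-128503363 on the plus strand (ENSMUSG00000025810.9, GRCm38, GENCODE), and the sequence printed for it falls within that span but outside the exons, ahead of the second annotated start. It shares 80 exon bases with Mir1903 on its own strand. Plxnb1 (ENSMUSG00000053646.13) spans chr9:109095389-109119917 on the plus strand and shares 257 exon bases with the opposite-strand gene Gm7628. Plxnb2 (ENSMUSG00000036606.17) spans chr15:89155549-89180788 on the minus strand and shares no exon base with another gene. Plxna1 shares 970 exon bases with Gm26811 on the opposite strand and Plxnc1 115 with Gm48718 on its own strand. The strand setting of the counting was not given in the sources used here and would not separate genes on 1 strand, so reads in these shared stretches cannot be assigned.

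Per length of exon, 2 receptors led in every group. In unstimulated vector cells Nrp1 was at 57.7 ± 7.84 (SD, n = 3) and Plxnb2 at 57.5 ± 3.72 normalized counts per kb, with overlapping libraries. Nrp2 followed at 23.9 ± 2.42, then Plxnd1 at 14.6 ± 1.27, Plxna1 at 11.3 ± 2.66 and Plxna3 at 9.04 ± 2.58, the last 3 overlapping with their neighbours. Plxna2, Plxnb1 and Plxnc1 were lowest, at 2.90 ± 0.54, 1.64 ± 0.78 and 1.59 ± 0.48 normalized counts per kb, and their libraries overlapped as well. Steps without overlap separated 4 tiers, with Nrp1 and Plxnb2 first, then Nrp2, then Plxnd1, Plxna1 and Plxna3, and last the low plexins.

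In tSema4B cells Nrp1 stood apart from Plxnb2 as the most abundant of the 9. The level per kb was 106 ± 6.94 for Nrp1 and 78.7 ± 9.89 for Plxnb2 in unstimulated tSema4B cells, and 111 ± 19.4 against 55.5 ± 6.08 after NE. In vector cells after NE it was 60.2 ± 1.88 against 37.9 ± 2.21, again with no overlap. The summed level of the 9 receptors was 180 ± 14.4 normalized counts per kb in unstimulated vector cells, 252 ± 8.49 in unstimulated tSema4B cells, 150 ± 3.44 in vector cells after NE and 224 ± 29.7 in tSema4B cells after NE. Nrp1 made up 31.9%, 42.2%, 40.3% and 49.4% of these sums in the same order, and Plxnb2 31.9%, 31.2%, 25.3% and 24.9%. At the lower end Plxnb1 was in eighth place per kb in 3 groups and ranked above Plxna2 in tSema4B cells after NE, at 3.77 ± 0.82 against 2.86 ± 0.34 without overlap.

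**Figure D1:**
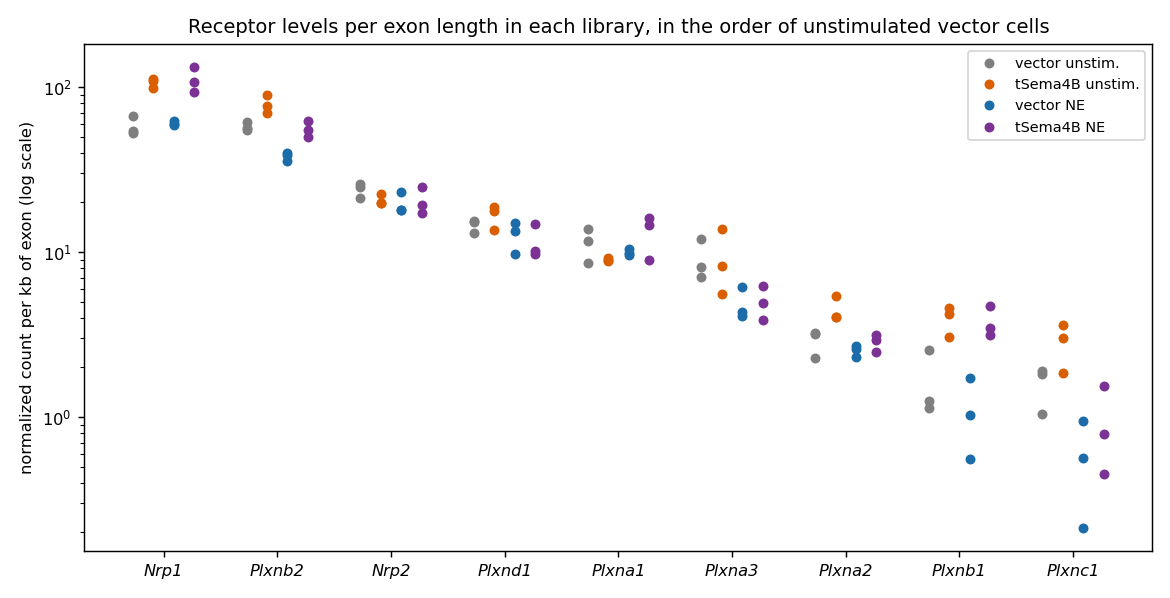
Normalized count per kb of exon (log scale) for the 9 receptor genes, 1 point per library, coloured by group. Nrp1 and Plxnb2 sit above the other receptors in every group, and Plxnb1 and Plxnc1 sit at the bottom in unstimulated vector cells, at 1.64 and 1.59 on average.

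Which receptors differed between the lines without stimulation was asked first. Nrp1 and Plxnb2 rose in unstimulated tSema4B cells by 1.84-fold and 1.37-fold, no member fell, and the remaining 7 did not pass the test. Past the test means an adjusted p of 0.05 or less in limma with Benjamini-Hochberg adjustment over all 11998 genes. The count of 2 of 9 higher stood against 5.64% of all genes tested that were called higher and 7.39% called lower. The median log2 fold change over the 9 members was 0.44, against -0.00 over all genes tested.

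Nrp1, the co-receptor that pairs with A-type plexins and binds VEGF, was at 528, 653 and 514 normalized counts in unstimulated vector libraries 1 to 3 and at 1061, 1098 and 967 in the tSema4B libraries. The lowest tSema4B value was far above the highest vector value. The difference was 0.89 on the log2(normalized count + 1) scale (SE 0.12, adjusted p = 9.52e-06, limma).

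Plxnb2, a B-type plexin, was at 422, 477 and 433 normalized counts in vector libraries and at 592, 689.9 and 539 in tSema4B libraries. The groups did not overlap, though the distance between the nearest libraries was smaller than for Nrp1. The log2 difference was 0.44 (SE 0.12, adjusted p = 0.0134, limma), and it missed the threshold without vector replicate 1 (0.41, adjusted p = 0.0654) or without tSema4B replicate 2 (0.35, adjusted p = 0.0799).

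Plxnb1, the second B-type plexin and a receptor known for RhoA activation, was much scarcer, with 10 to 29 reads in vector and 19 to 34 in tSema4B libraries. Its normalized counts were 11.9, 24.4 and 10.9 against 40.5, 29.4 and 43.8. All 3 tSema4B libraries were higher, with vector replicate 2 closest to them. The log2 difference of 1.29 (SE 0.43, 95% interval 0.39 to 2.18) missed the threshold at an adjusted p of 0.0525 in limma. It passed in 4 of 16 alternatives, among them DESeq2 on whole reads (1.25, adjusted p = 0.0488) and the fit without vector replicate 2 (1.63, adjusted p = 0.0326), and the adjusted p ran from 0.0284 to 0.165 over all 16.

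Plxna2, an A-type plexin, was at 39.1, 54.7 and 55.5 normalized counts in vector and 69.1, 69.6 and 93.1 in tSema4B cells. Its libraries did not overlap either, but the log2 difference of 0.63 (0.11 to 1.15) had an adjusted p of 0.108. Groups without overlap in this direction were found for 4 of 9 members, against 14.2% of all genes tested, and for no member in the other direction, against 15.1%.

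Nrp2, the second neuropilin, was at 304, 295 and 250.5 normalized counts in vector libraries and at 235, 235 and 267 in tSema4B libraries. The ranges overlapped, and the log2 difference of -0.20 (-0.52 to 0.11) did not pass. The upper bound of 0.11 lies below the lower bound of the Nrp1 interval, 0.65. For the other plexins the intervals were wide, from -0.77 to 0.16 for Plxna1, from -0.70 to 0.63 for Plxna3, from -0.43 to 1.98 for Plxnc1 and from -0.27 to 0.64 for Plxnd1, the receptor of Sema3e.

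**Figure D2:**
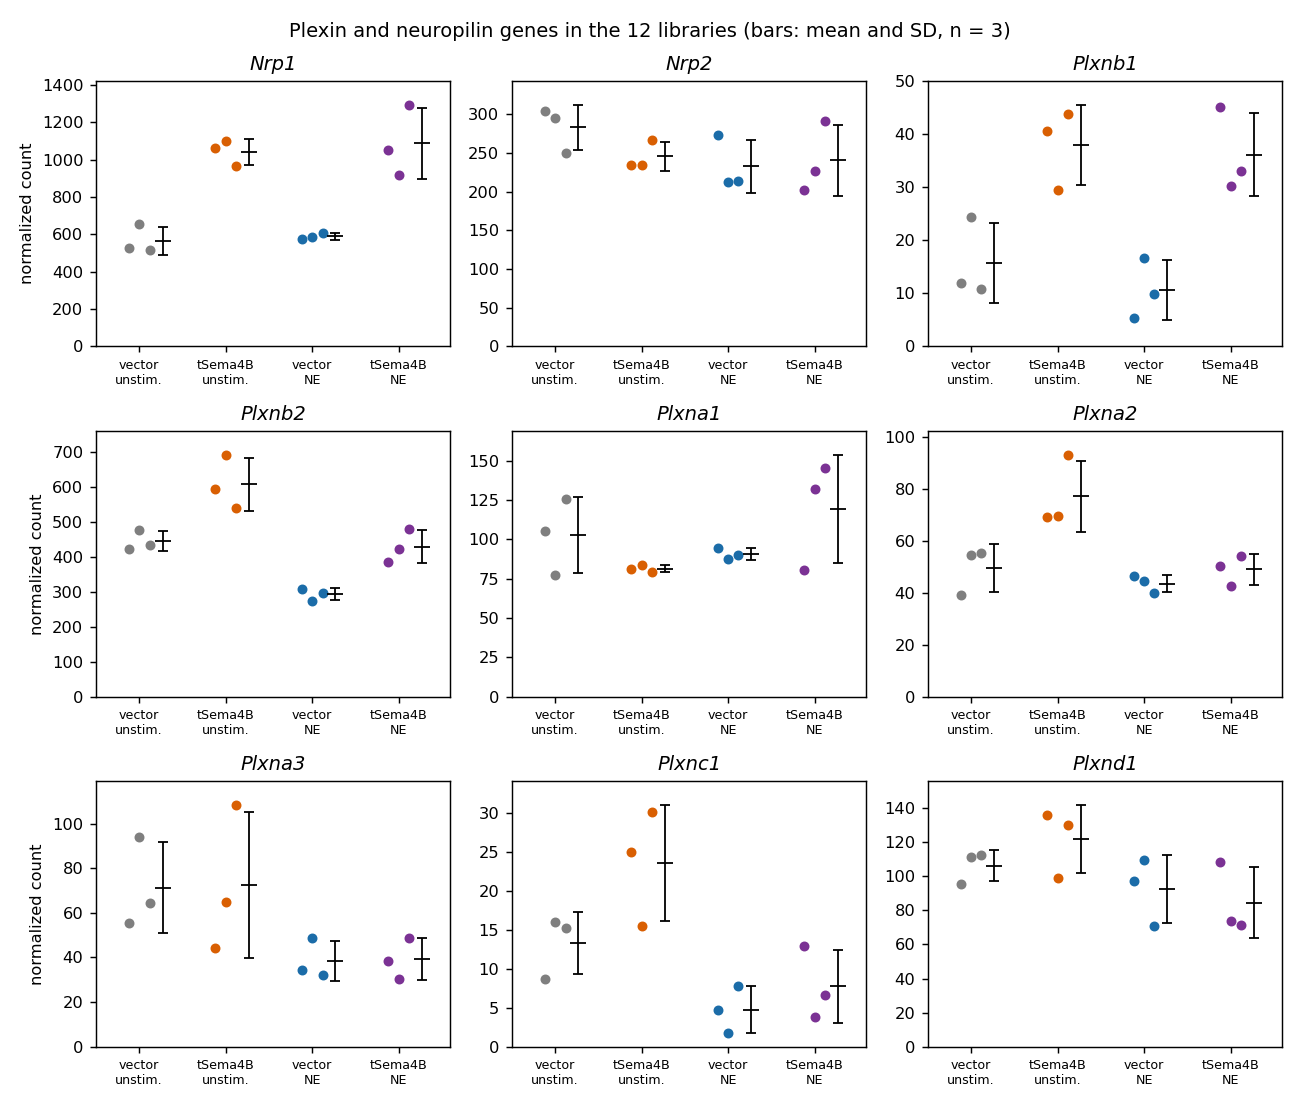
Normalized count (linear axes from 0) of each of the 9 receptor genes, with 1 point per library in 4 groups and bars for mean and SD (n = 3). The tSema4B libraries of Nrp1 lie at 917 to 1292, above all vector libraries at 514 to 653, whereas those of Nrp2 overlap.

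The same contrast after 6 h of NE showed 3 receptors that rose, Nrp1, Plxnb1 and Plxnb2, and again none that fell. The count of 3 of 9 higher stood against 9.79% of all genes tested called higher and 11.2% called lower. The median over the members was 0.35 against -0.01 over all genes tested.

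Nrp1 was at 574, 584 and 609.5 normalized counts in vector libraries after NE and at 1054, 917 and 1292 in tSema4B libraries. The tSema4B libraries scattered more than the vector libraries but all lay above them. The log2 difference was 0.87 (SE 0.12, adjusted p = 1.05e-05, limma), a 1.85-fold ratio of means.

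Plxnb1 was at 5.38, 16.6 and 9.82 normalized counts in vector libraries after NE and at 45.0, 30.3 and 33.0 in tSema4B libraries. The lowest tSema4B library was above the highest vector library. The log2 difference was 1.78 (SE 0.43, adjusted p = 0.0050, limma) and the ratio of means 3.41, which rests on 8 to 28 reads in each vector and 25 to 42 reads in each tSema4B library. The log2 difference ran from 1.19 to 2.14 over 16 alternatives and passed in all of them, while a filter at 50 normalized counts removed the gene.

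Plxnb2 was at 307, 274 and 297 normalized counts in vector libraries after NE and at 385, 423 and 478 in tSema4B libraries. The groups did not overlap, and the log2 difference was 0.55 (SE 0.12, adjusted p = 0.00198, limma), a 1.47-fold ratio. Nrp1, Plxnb1 and Plxnb2 were the only members without overlap, 3 of 9 against 17.9% of all genes tested in that direction, while no member lay apart on the lower side, against 19.8%.

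The 6 members that did not pass after NE had log2 differences between -0.13 and 0.62. Nrp2 was closest to none among the neuropilins, at 0.04 (-0.28 to 0.35), with 273, 213 and 214 normalized counts in vector against 203, 227 and 292 in tSema4B libraries. Plxna1 was at 0.35 (-0.12 to 0.82), with tSema4B replicate 1 at 80.4 and replicates 2 and 3 at 132 and 145 normalized counts. Plxnc1, the receptor of Sema7a, had 3 to 12 reads per library in these groups and an interval of -0.59 to 1.82.

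**Figure D3:**
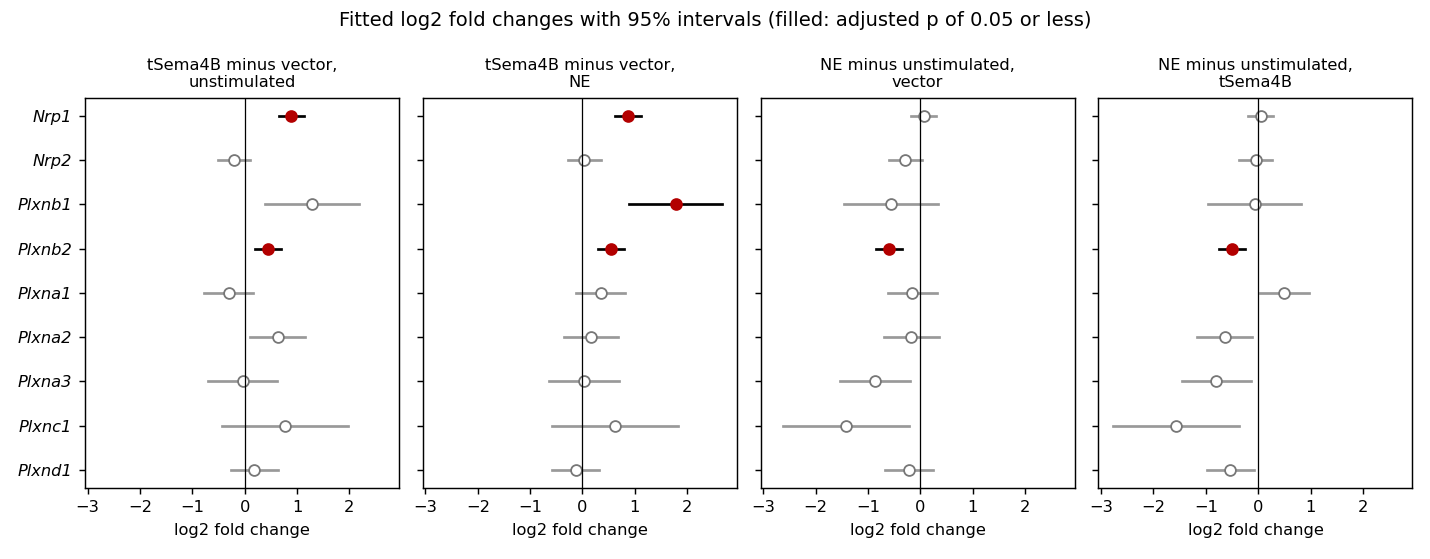
Fitted log2 fold changes on the log2(normalized count + 1) scale with 95% intervals for the 9 receptors in the 4 comparisons, filled where the adjusted p was 0.05 or less (limma). Nrp1 and Plxnb2 are filled in both comparisons of the lines and Plxnb1 only in the one after NE (1.78), while Plxnb2 alone is filled, on the lower side, in both NE comparisons.

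The 2 neuropilins were also compared within each library, a measure that no scaling between libraries can change. The ratio of Nrp1 to Nrp2 per kb was 2.42 ± 0.29 in unstimulated vector cells (2.10 to 2.68) and 5.17 ± 0.69 in unstimulated tSema4B cells (4.38 to 5.65). After NE it was 3.10 ± 0.49 (2.55 to 3.45) and 5.51 ± 0.72 (4.88 to 6.29). All tSema4B libraries had a higher ratio than all vector libraries in both conditions, with log2 differences of 1.09 and 0.83. A two-sided exact permutation test gave p = 0.1 for each, the smallest value that 3 against 3 libraries allow. The ratio of Plxnb2 to Plxnb1 per kb went the other way, from 43.0 ± 25.7 to 15.3 ± 4.08 after NE without overlap (exact permutation p = 0.1), and from 39.2 ± 13.2 to 20.9 ± 7.32 in unstimulated cells with overlap (exact permutation p = 0.2).

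NE was compared with no stimulation next. In vector cells Plxnb2 fell by 0.60 on the log2 scale (SE 0.12, adjusted p = 0.00178, limma), from 422, 477 and 433 to 307, 274 and 297 normalized counts, and it was the only member past the test. That is 1 of 9 lower, against 4.78% of all genes tested called lower and 6.82% called higher. The median over the members was -0.28 against -0.02 over all genes tested, and it includes Plxnc1, whose fall with NE the filter favours.

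Groups without overlap were found for Plxnb2, Plxna3 and Plxnc1, 3 of 9 against 15.7% of all genes tested on the lower side, and for no member on the higher side, against 17.6%. Plxnc1 reached the filter of 10 normalized counts mostly through unstimulated libraries, 5 of 6 against 1 of 6 with NE, so its place in this count is favoured by the filter. Plxna3 was at 55.4, 94.2 and 64.3 normalized counts before and 34.3, 48.6 and 32.1 after NE in vector cells. Its log2 difference of -0.87 (-1.53 to -0.20) had an adjusted p of 0.0859 and passed in 2 of 17 alternatives, in DESeq2 (adjusted p = 0.0499) and in the fit of the 6 libraries compared (adjusted p = 0.0256). Plxnc1 went from 8.69, 16.0 and 15.2 to 4.70, 1.78 and 7.86 normalized counts, with a log2 difference of -1.42 (-2.62 to -0.21, adjusted p = 0.128). Nrp1 stayed within its spread, at 0.07 (-0.17 to 0.31).

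In tSema4B cells NE gave the same single call. Plxnb2 fell by 0.50 on the log2 scale (SE 0.12, adjusted p = 0.0115, limma), from 592, 689.9 and 539 to 385, 423 and 478 normalized counts without overlap. This was 1 of 9 lower, against 2.58% of all genes tested called lower and 3.68% called higher. The call was lost without unstimulated tSema4B replicate 2 (-0.40, adjusted p = 0.0662) or NE-treated tSema4B replicate 1 (-0.42, adjusted p = 0.0524). The median over the members was -0.50 against -0.00, and it includes Plxnc1, whose fall with NE the filter favours.

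Plxna2 went from 69.1, 69.6 and 93.1 to 50.4, 42.6 and 54.2 normalized counts in tSema4B cells, with no overlap and a log2 difference of -0.64 (-1.16 to -0.12, adjusted p = 0.146). Plxnc1 went from 25.0, 15.5 and 30.1 to 12.9, 3.79 and 6.61, at -1.57 (-2.78 to -0.37, adjusted p = 0.115). With Plxnb2 these were the 3 of 9 members without overlap, against 9.64% of all genes tested, and none lay apart on the higher side, against 11.0%. The filter favours Plxnc1 here too, so neither count of 3 and neither member median for NE is read as support. Plxnd1 (-0.53, adjusted p = 0.161) and Plxna3 (-0.80, adjusted p = 0.152) overlapped and did not pass. Plxna1 had the only interval above 0, with a difference of 0.50 (0.03 to 0.97, adjusted p = 0.209), and it passed once NE-treated tSema4B replicate 1 was left out (0.76, adjusted p = 0.0434). Nrp1 was at 0.05 (-0.19 to 0.29) and Plxnb1 at -0.07 (-0.96 to 0.83).

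Whether NE acted differently in the lines was tested with the interaction. None of the 9 members passed in limma, edgeR or DESeq2, against 0.0250% and 0.0333% of 11998 genes in limma and edgeR, and 1.46% of the 5950 genes to which DESeq2 gave an adjusted p. At an unadjusted p under 0.05 there were 0 members in limma, 1 in edgeR and 1 in DESeq2, which gave adjusted p-values for only 5 of the 9. Over all genes that share was 10.2%, 10.4% and 10.3%, so 1 of 9 is close to the background. The same limma counts between the lines were 4 of 9 unstimulated and 3 of 9 after NE, against 26.1% and 32.9% of all genes. For NE they were 3 of 9 in vector and 6 of 9 in tSema4B cells, the 6 being 5 lower and 1 higher, against 23.9% and 19.9%. Both NE counts include Plxnc1, which the filter favours. The largest value in limma was that of Plxna1, 0.65 (-0.01 to 1.31, adjusted p = 0.493). For Plxnb1, called between the lines only after NE, the interaction was 0.49 (-0.77 to 1.76, adjusted p = 0.836). For Plxnb2 it was 0.10 (-0.25 to 0.45) and for Nrp1 -0.02 (-0.36 to 0.32).

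The ligands of these receptors were followed in a list of 20 semaphorin genes, of which 13 were tested. Between the lines 2 were higher and 0 lower unstimulated, and 2 were higher and 1 lower after NE, where 5.64% and 7.39% of all genes were called higher and lower unstimulated and 9.79% and 11.2% after NE. The higher ones were Sema4b, the transduced gene, and Sema3a, a secreted ligand that signals through Nrp1 with A-type plexins. Since Sema4b is the manipulated gene, these counts and the list medians between the lines are not read as a result about the list. Sema3a was at 2768 to 2993 normalized counts in unstimulated vector cells and 6207 to 7561 in tSema4B cells, a log2 difference of 1.20 (adjusted p = 5.22e-09, limma), and at 1571 to 1998 against 4996 to 6234 after NE, a difference of 1.62 (adjusted p = 4.22e-11). Its normalized count was 2.30 to 2.51% of that of Sema4b in every one of the 12 libraries, so both genes moved in step, and whether all these reads come from Sema3a transcripts was not tested. The one that was lower, named here after its values were seen, was Sema4a at -1.88 (adjusted p = 0.0157, limma). Sema4a had 29 to 59 reads per vector and 1 to 14 per tSema4B library after NE, so the size rests on few reads. With NE, Sema3a fell by 0.69 and Sema4b fell by 0.66 in vector cells, and no semaphorin was called in tSema4B cells. The 2 of 13 lower in vector cells stood against 4.78% of all genes called lower and 6.82% called higher. The 0 of 13 in tSema4B cells stood against 2.58% and 3.68%, so it is near the background. None of the 13 passed the interaction test, against 0.0250% of all genes. The median over the 13 was 0.34 unstimulated and 0.66 after NE between the lines, and -0.44 and -0.27 for NE in vector and tSema4B cells, with all genes tested at -0.00, -0.01, -0.02 and -0.00.

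Of 11 genes for receptors and adhesion molecules known to associate with plexins or neuropilins, 5 were tested, and 4 were higher in tSema4B cells in each condition, against 5.64% and 9.79% of all genes called higher. These were Flt1, a VEGF receptor (0.92 and 0.86 on the log2 scale), Ptk7, a pseudokinase that binds plexins (0.65 and 0.74), and, named after their values were seen, the hepatocyte growth factor receptor Met (0.41 and 0.63) and the integrin chain Itgb1 (0.48 and 0.42). With NE, Ptk7 fell by 0.64 in vector cells and Flt1 fell by 0.71 in tSema4B cells. That is 1 of 5 lower in each line, against 4.78% and 2.58% of all genes called lower. The medians over the 5 were 0.56 and 0.63 between the lines and -0.29 and -0.25 for NE. Of 5 VEGF ligand genes, Vegfc alone was called between the lines, higher by 1.40 unstimulated and 0.90 after NE (also named after its values were seen). The share of all genes called higher was 5.64% and 9.79%. Vegfd alone was called with NE, lower by 0.82 in vector and 0.66 in tSema4B cells, against 4.78% and 2.58% of all genes. A single call among 5 genes is not read as a result about the list. The medians of the 5 ligands were -0.26 and -0.21 between the lines and 0.10 and -0.10 for NE.

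Downstream, 32 of 35 genes for plexin transducers were tested and most did not pass. Unstimulated, 2 of 32 were higher and 1 lower in tSema4B cells, near the shares of all genes called (5.64% and 7.39%). After NE 3 were higher and 2 lower, again near the background of 9.79% and 11.2%, so the counts say nothing particular about the list and single genes are given as values. Pak1, a kinase activated by Rac and Cdc42, was higher by 0.78 (adjusted p = 0.000245), Dpysl2, the semaphorin mediator CRMP2, by 0.51 (adjusted p = 0.00868), and Rhoa, the GTPase activated through B-type plexins, fell by 0.40 (adjusted p = 0.00507, limma). The genes called after NE were Dpysl2 at 0.93, Limk2 at 0.74 and Pak1 at 0.67 on the higher side and Rhoa at -0.48 and Rras2 at -0.69 on the lower side. Limk1, the kinase that phosphorylates cofilin, rose with NE by 1.35 in vector and 1.30 in tSema4B cells. Dpysl2 fell by 0.75 with NE in vector cells. These were the only NE calls, 1 of 32 higher in each line and 1 lower in vector cells. The shares of all genes were 6.82% and 3.68% called higher and 4.78% and 2.58% called lower. The list medians were 0.23 unstimulated and 0.08 after NE between the lines, and 0.01 and -0.05 for NE in vector and tSema4B cells.

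Genes that tracked the 3 called members most closely were searched among 8252 genes with a mean of at least 50 normalized counts, over the 12 libraries. The 12 points fall into 4 groups and are not independent, so the correlations are a description only. Nrp1 was most like Igsf3 (Pearson r = 0.970) and Socs5 (0.967). Plxnb2 was most like the collagen VI chains Col6a1 (0.988) and Col6a2 (0.980), and Plxnb1 most like Pdlim5 (0.937) and Scpep1 (0.931).

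Col6a1 shared both movements of Plxnb2. It was at 4268 to 4382 normalized counts in unstimulated vector, 5784 to 6853 in unstimulated tSema4B, 2368 to 2927 in NE-treated vector and 3829 to 4956 in NE-treated tSema4B cells. Igsf3 had the pattern of Nrp1, with 117 to 144 and 124 to 136 normalized counts in vector cells without and with NE, and 205 to 263 and 201 to 260 in tSema4B cells. Among the members themselves, the 36 pairs had Pearson correlations between -0.63 and 0.85 over the same libraries, with a median of 0.31, and 27 were above 0.

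**Figure D4:**
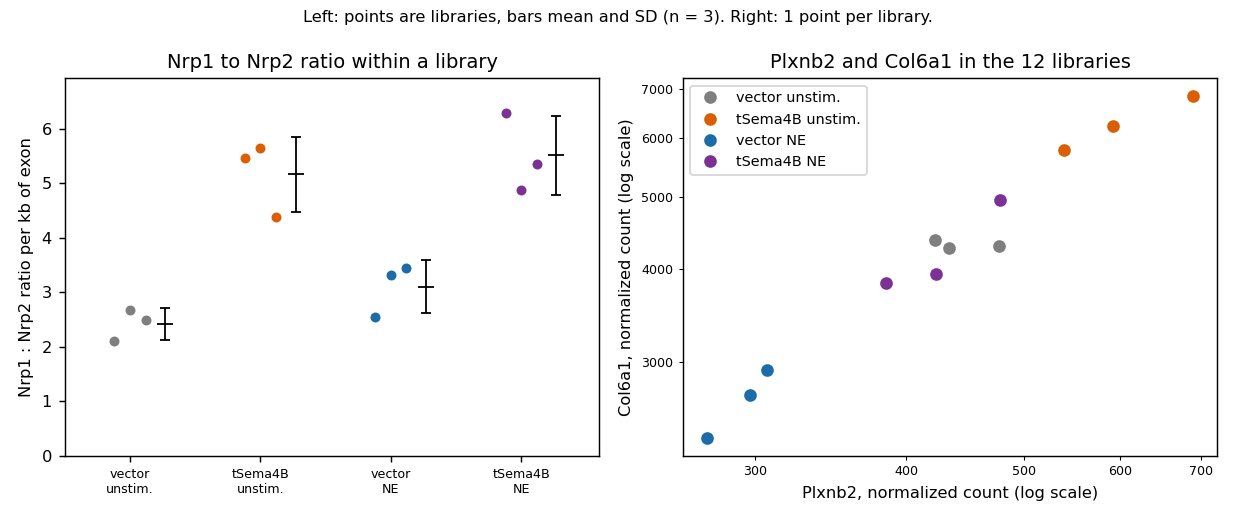
Left, ratio of Nrp1 to Nrp2 per kb of exon in each library with mean and SD (n = 3), which is 2.10 to 3.45 in vector and 4.38 to 6.29 in tSema4B libraries. Right, normalized counts of Plxnb2 and Col6a1 in the 12 libraries (log scales), with NE-treated vector cells lowest and unstimulated tSema4B cells highest in both genes.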

How the data were processed

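RNAseq of 12 mouse libraries (SMART-Seq2 cDNA, Nextera XT, single-end reads) was used. The authors aligned reads with STAR 2.7.9a to mm10/GRCm38.p4, counted them per gene with HTSeq and divided by DESeq2 size factors, so the deposited signal is a normalized count per gene. The annotation, strand setting and treatment of multimapping reads were not given in the sources used here. Every non-zero value was a whole multiple of 1 read (0.593 to 1.55 normalized counts) to within 0.01, so 100% of values gave whole reads, which were used for edgeR 4.0.16 (quasi-likelihood, TMM) and DESeq2 1.42.0 as alternatives. The main test was limma 3.58.1 in R 4.3.3 with a variance trend on log2(normalized count + 1), a scale that understates changes of scarce genes. One model of 4 groups was fitted to the 11998 genes that reached 10 normalized counts in 3 or more libraries, two-sided, with Benjamini-Hochberg adjustment over all of them. The threshold was an adjusted p of 0.05. On whole reads edgeR called 1534, 2719, 1574 and 689 genes in the 4 comparisons of 2 groups, against 1564, 2517, 1392 and 750 in limma.

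Members, gene lists and markers were chosen with earlier results of these data known. Named are the 9 members, Sema4b, Ucp1 and Fabp4 as checks, Plxna4, Plxnb3, up to 2 genes per direction, list and comparison past the test with a mean of at least 50 normalized counts, and the 2 genes most correlated with each called member. Other genes of the lists, among them the markers Pecam1, Csf1r, Tubb3, Cidea and Ppargc1a, were named after their values were seen. Fabp4 was lower in tSema4B cells in both conditions (-2.59 and -2.88, log2). Exon lengths, used for levels per kb, came from GENCODE for GRCm38, and Vegfd was found in the table as Figf. Alternatives were other pseudocounts, filters, scalings, tools, a fold threshold, the 6 libraries compared, a replicate block, and each library left out. The methods were run on simulated data with the same set variation for every gene and changes in unstimulated tSema4B cells only. That setting is simpler than these data, so the run is not read as support for the calls. No column of values was left unused. Depth limits precision most for Plxnb1 and Plxnc1.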

Additional observations from a re-analysis of the deposited data

How the results depend on the processing

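At the adjusted p alone, that is leaving the fold threshold aside, Nrp1 passed in 17 of 17 alternatives in both comparisons of the lines (log2 0.80 to 1.00 unstimulated, 0.74 to 0.99 after NE), and Plxnb2 in 17 of 17 after NE (0.46 to 0.64) and for NE in vector cells (-0.64 to -0.55), but in 15 of 17 unstimulated (0.35 to 0.53) and for NE in tSema4B cells (-0.58 to -0.40). When calls also had to reach 1 in size on the log2 scale, the counts of members called became 0 and 1 between the lines (unstimulated and NE) and 0 for NE in vector and 0 in tSema4B cells, so that Nrp1 and Plxnb2 lost every call and Plxnb1 after NE was the one left. For NE in vector cells DESeq2 called 2 and the fit of the 6 libraries compared called 2, adding Plxna3. Leaving out each library gave 1 to 3 members unstimulated, 3 to 3 after NE, 1 to 1 for NE in vector and 0 to 1 in tSema4B cells, and 0 for the interaction. The single call unstimulated was left without vector replicate 1 or tSema4B replicate 2, and none for NE in tSema4B cells without unstimulated replicate 2. The cause was not tested. Directions that turned belong to values that did not pass. Plxna3 between the lines became 0.012 in DESeq2 unstimulated and -0.018 with libraries rescaled to nuclear totals after NE, where Nrp2 became -0.013. Nrp1 for NE in vector cells became -0.015 and the Plxnc1 interaction 0.23 with quantile normalization. The Nrp1 interaction became 0.051, 0.018 and 0.032 with total, nuclear and quantile scaling, 0.0032 in edgeR and 3.38e-05 in DESeq2. With each library left out, the ranges that crossed 0 were -0.37 to 0.27 (Plxna3, lines, unstimulated), -0.14 to 0.21 (Plxna3, lines, NE), -0.11 to 0.16 (Nrp2, lines, NE), -0.34 to 0.0030 (Plxna1, NE in vector), -0.24 to 0.044, -0.082 to 0.17 and -0.19 to 0.071 (Plxnb1, Nrp1 and Nrp2, NE in tSema4B), and -0.24 to 0.40, -0.61 to 0.23 and -0.15 to 0.098 (interaction of Plxna3, Plxnc1 and Nrp1). Deviations from the group mean over all genes tested had correlations of -0.047 to 0.028 in 18 pairs of same-numbered libraries, none over 0.1. This cannot exclude pairing, since an effect shared by few genes would hardly raise such a correlation. With the replicate block the counts were 2, 3, 1, 1 and 0, as without it. Rescaling to equal totals changed the split of all genes called after NE from 1175 higher and 1342 lower to 1651 and 1030, and over nuclear genes that of unstimulated cells from 677 and 887 to 475 and 1232. The filter at 50 dropped Plxnb1 and Plxnc1.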
